A study of Mus musculus with 33 samples.

Results

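Stra8 and Rec8, a pair of genes of meiotic entry, were followed through a mouse embryonic stem cell differentiation toward tendon or fibrocartilage cells in which retinoid signaling was turned up or down. They are 2 of the 17120 genes in the count table. They were chosen by name; Stra8 was named because of its large rise with the agonist CD1530 in these same libraries, so its levels are described here with no test. Rec8 was named beside it with earlier results of these data known, so its tests are not independent evidence of a direction.

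The 33 RNA sequencing libraries fell into 11 groups of 3 replicates from mouse ES cells carrying the ScxGFP tendon reporter. Paraxial mesoderm (PM), collected at D6 as embryoid bodies after LDN-193189 and CHIR, was the starting point. Monolayers were then grown with TGFβ1, SAG and FGF2 and 1 of 2 ligands. CD1530 activates RARγ, the gamma form of the retinoic acid receptor, while AGN 193109 (AGN) drives the receptors below their unliganded activity as an inverse agonist. The study used CD1530 as its tendon condition and AGN as its fibrocartilage condition, so ligand and intended fate go together in every comparison of the 2. Collection was at D6.25 and D6.75, then at D7.5, at D8.5 and last at D10, labelled as 0.25, 0.75, 1.5, 2.5 and 4 days of induction. Every group shares the reporter and the PM stage, no group after D6 lacks a retinoid receptor ligand, and PM differs from the later groups in culture format, medium and time together, which cannot be told apart. Which retinoid ligand, if any, the PM stage of these libraries received is not given in the sources used here, nor is the reporter line behind each replicate number, so p-values measure the spread between these cultures. Libraries held 17116084 to 38120841 counts with a median of 19899242, and AGN D8.5 replicate 1, the deepest, stood above the next at 22775275.

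Retinoic acid acts through nuclear receptors (RARs paired with RXRs) that bind paired copies of a short DNA hexamer and switch from repression to activation when ligand is bound. In the fetal ovary and the postnatal testis this signal turns on Stra8, whose product joins MEIOSIN to activate meiotic genes. Rec8 encodes the meiotic kleisin, the subunit that replaces RAD21 in the cohesin ring that holds sister chromatids together, and it too responds to retinoic acid in germ cells. In embryonic stem cells the PRC1.6 repressor complex keeps many meiotic genes low.

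Stra8 (ENSMUSG00000029848) lies at chr6:34920163-34939344 on the plus strand of GRCm38, and Rec8 (ENSMUSG00000002324) at chr14:55618037-55625395, also on the plus strand. No other annotated gene overlapped either of them. The start regions were searched for the hexamers that RARs recognize, for their direct repeats with a spacer of 1, 2 or 5 bases, and for TCCCGC, the core bound by E2F6, on both strands of the 250 bases before and 50 bases after the RefSeq start (GRCm38.p6). The hexamer forms searched were AGGTCA first, then its variant AGTTCA, the form GGGTCA and last the form GGTTCA. Sequences of 30 bases around the matches follow with the matched letters in capitals, because they compare the start of Stra8 with that of Rarb, which holds a full spaced repeat, and with that of Rec8, which held none of the hexamers.
Stra8, 194 bases before the start, chr6:34920742-34920771, plus strand: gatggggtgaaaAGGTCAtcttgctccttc
Stra8, 38 bases before the start, chr6:34920898-34920927, plus strand: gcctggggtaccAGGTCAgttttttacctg
Rarb, 53 bases before the start, chr14:16575506-16575535, minus strand: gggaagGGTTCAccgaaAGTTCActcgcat
Rec8, 38 bases before the start, chr14:55618116-55618145, plus strand: gtgtgcacctgaTCCCGCtggagggcgaca
The Stra8 window thus held 2 copies of AGGTCA and no direct repeat of the 4 hexamers searched. The Rarb window held GGTTCA and AGTTCA 5 bases apart. It also held GGGTCA 83 bases before the start and TCCCGC 240 bases before it, which are not shown. Other hexamers were not searched, and the letters gggtga stand 2 bases before the Stra8 AGGTCA at 194. A repeat that uses another form is therefore not excluded. Of 32851 promoters searched, 16.3% held AGGTCA, 43.7% held any of the 4 hexamers, 20.0% held TCCCGC and 0.0974% held a direct repeat with a spacer of 5. All 4 stretches also lie in a 5′ untranslated exon of at least 1 GENCODE M21 transcript that starts further upstream. A match is a description of letters, not evidence of binding.

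Stra8 was near 0 at the start and reached the upper few percent of genes in CD1530 (values in CPM, counts scaled to the TMM-adjusted library total). In PM its 3 libraries held 3, 5 and 1 counts, or 0.145 ± 0.091 CPM (SD, n = 3 here and below). At D6.25 the CD1530 libraries held 5, 7 and 1 counts and the AGN libraries 2, 1 and 0, and the 2 conditions overlapped.
At D6.75 the CD1530 libraries stood at 156, 127 and 138 counts (6.23 ± 0.69 CPM), while AGN stood at 7, 4 and 4 counts (0.242 ± 0.059 CPM). From this stage on every CD1530 library lay above every AGN and PM library. CD1530 then reached 936, 1111 and 1247 counts (52.2 ± 1.6 CPM) at D7.5, 4110, 4269 and 4001 counts (231 ± 4.5 CPM) at D8.5, and 3961, 3637 and 3593 counts (201 ± 1.1 CPM) at D10. In AGN the D7.5 libraries held 5, 2 and 5 counts, those of D8.5 held 10, 7 and 1, and those of D10 held 3, 2 and 3.

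**Figure D1:**
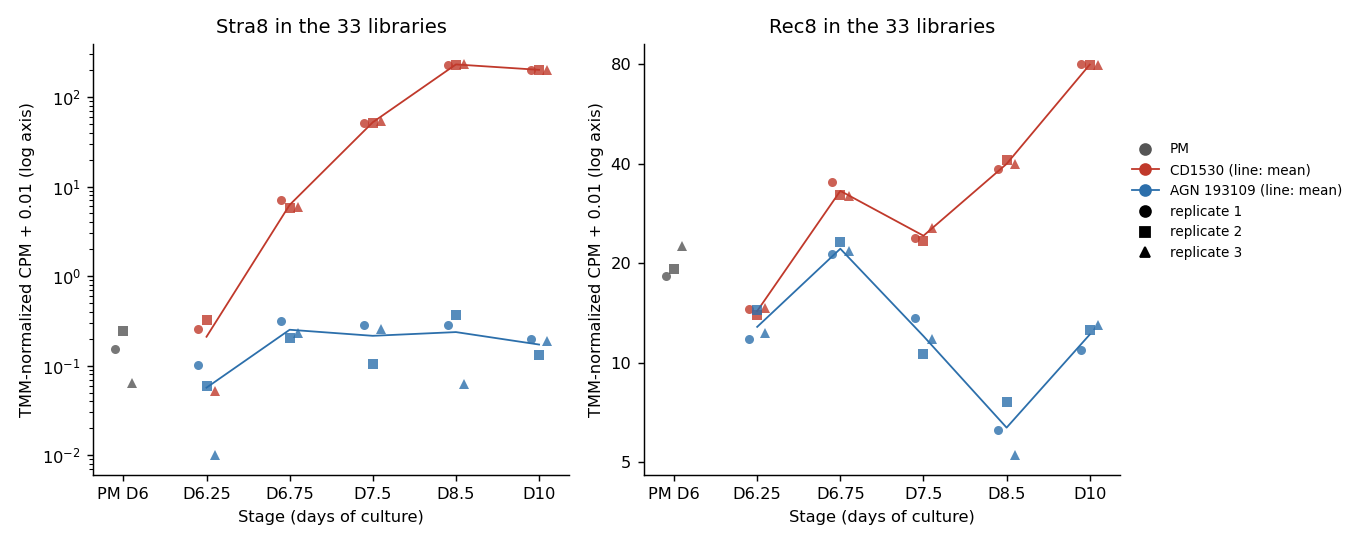
Stra8 (left) and Rec8 (right) in each of the 33 libraries, as TMM-normalized CPM plus 0.01 on a log axis, against the stage of culture; symbols mark replicate numbers and lines join the means of CD1530 (red) and AGN (blue). Stra8 goes from 0.200 CPM at D6.25 to 231 CPM at D8.5 in CD1530 and stays under 0.4 CPM in AGN, while Rec8 is present in all groups, and its conditions do not overlap from D6.75 on.

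Summed over replicates, the ratio of Stra8 in CD1530 to AGN was 4.13 at D6.25, with a 95% counting interval of 1.14 to 22.6, on 13 against 3 counts. It was 25.4 (15.2 to 45.8) at D6.75, 261 (149 to 505) at D7.5, 967 (612 to 1632) at D8.5 and 1240 (629 to 2873) at D10. These exact intervals cover counting error only, and the last ratio rests on 8 counts in AGN, where no library was above 3. The steps within CD1530 shrank with time. Stra8 multiplied by 31.7 (18.3 to 60.0) from D6.25 to D6.75, by 8.40 (7.58 to 9.32) to D7.5 and by 4.41 (4.25 to 4.59) to D8.5, and then stood at 0.870 (0.848 to 0.893) of that level at D10. The lowest D8.5 library, at 227 CPM, was above the highest D10 library, at 202 CPM.

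Ordered by mean level, the 4 top groups for Stra8 were CD1530 at D8.5, D10, D7.5 and D6.75, and no neighbours among these 4 overlapped. The other 7 groups, CD1530 D6.25 and PM included, lay between 0.0468 and 0.242 CPM and each overlapped the next. The ratio of AGN to PM, with its counting interval, was 0.320 (0.0558 to 1.28) at D6.25, 1.65 (0.677 to 4.28) at D6.75, 1.35 (0.522 to 3.63) at D7.5, 1.61 (0.686 to 4.06) at D8.5 and 1.09 (0.366 to 3.18) at D10. Within AGN, D6.75 stood at 5.16 (1.46 to 27.8) times D6.25, on 15 against 3 counts, without overlap.

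Rec8 was expressed from the start and changed in both directions. PM held 382, 407 and 418 counts (20.0 ± 2.2 CPM), and at D6.25 Rec8 stood at 294, 312 and 342 counts (14.3 ± 0.39 CPM) with CD1530 and at 259, 295 and 256 (12.9 ± 1.4 CPM) with AGN. The 2 conditions overlapped at D6.25, with a log2 fold change of 0.16 ± 0.09 (SE; edgeR quasi-likelihood test, Benjamini-Hochberg adjusted p = 0.553). At D6.75 the counts were 785, 707 and 750 in CD1530 (33.2 ± 1.9 CPM) and 486, 478 and 390 in AGN (22.1 ± 0.95 CPM). From D6.75 on, all 3 CD1530 libraries lay above all 3 AGN libraries.
Rec8 was higher in CD1530 by 0.58 ± 0.08 on the log2 scale at D6.75 (edgeR adjusted p = 2.21e-07) and by 1.02 ± 0.09 at D7.5 (edgeR adjusted p = 2.64e-12). The D7.5 counts were 437, 504 and 589 against 249, 227 and 238. At D8.5 they were 693, 774 and 681 in CD1530 (40.0 ± 1.2 CPM) and 230, 149 and 99 in AGN (6.35 ± 1.2 CPM), a log2 difference of 2.66 ± 0.09 (edgeR adjusted p = 1.34e-25). AGN replicate 1 is the deep library, and its level of 6.23 CPM lay between those of the other replicates.
By D10 Rec8 was at 1593, 1446 and 1418 counts in CD1530 (79.9 ± 0.48 CPM) and 174, 210 and 218 in AGN (12.2 ± 1.1 CPM), which is 6.56-fold (log2 2.71 ± 0.08, edgeR adjusted p = 1.5e-27). Rec8 was thus called, meaning an adjusted p under 0.05, at 4 of the 5 stages, where 1.92%, 18.0%, 26.9%, 40.0% and 46.6% of all 17120 genes were called from D6.25 to D10 in turn.

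Both conditions shared the early course of Rec8 and then parted. From D6.25 to D6.75 Rec8 rose by 1.21 ± 0.08 in CD1530 and by 0.79 ± 0.09 in AGN on the log2 scale, and to D7.5 it fell by 0.45 and by 0.89, respectively. From D7.5 to D8.5 it rose by 0.72 ± 0.08 in CD1530 and fell by 0.91 in AGN, and to D10 it rose in both, by 1.00 ± 0.07 and 0.94 ± 0.11. All 8 steps were called (edgeR adjusted p of 1.06e-05 or less). Of all genes, 45.9%, 34.2%, 36.5% and 57.3% were called at the 4 CD1530 steps and 43.7%, 30.3%, 42.1% and 59.4% at the 4 AGN steps. The difference between conditions itself differed among the 5 stages (edgeR interaction test with 4 degrees of freedom, adjusted p = 2.62e-22), as it did for 48.8% of genes.
Against PM, Rec8 was lower at D6.25 in CD1530 by 0.48 ± 0.09 and in AGN by 0.64 ± 0.09 on the log2 scale. In CD1530 it was then above PM by 0.73 ± 0.08 at D6.75, 0.28 ± 0.08 at D7.5, 1.00 ± 0.08 at D8.5 and 2.00 ± 0.08 at D10. In AGN it stood 0.15 ± 0.08 above PM at D6.75, which was not called (edgeR adjusted p = 0.106; 0.0182 without PM replicate 3), and fell below PM by 0.74 ± 0.09 (D7.5), 1.65 ± 0.10 (D8.5) and 0.71 ± 0.09 (D10). The other 9 comparisons with PM were called (edgeR adjusted p of 0.00257 or less). In these comparisons 67.8%, 71.9%, 74.1%, 77.4% and 83.2% of all genes were called in CD1530 and 68.1%, 73.5%, 71.5%, 76.0% and 82.0% in AGN, stage by stage.

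Per base of exon (RPKM, the CPM divided by exon length in kilobases), Rec8 was the more abundant of the pair in PM, in every AGN group and in CD1530 until D6.75, and Stra8 was the more abundant in CD1530 from D7.5 on. In PM Rec8 was at 6.82 ± 0.76 RPKM and Stra8 at 0.0802 ± 0.051 RPKM, and 59.1% and 4.96% of genes, respectively, had a lower level. In CD1530 at D6.75 Stra8 was at 3.45 and Rec8 at 11.3 RPKM. At D7.5 Stra8 was at 28.9 and Rec8 at 8.25 RPKM, a ratio of 3.51, and the ratio was 9.39 at D8.5 and 4.09 at D10. Stra8 at D8.5, at 128 ± 2.5 RPKM, exceeded 97.7% of genes, and Rec8 at D10, at 27.2 ± 0.16 RPKM, exceeded 85.9%. In bulk RNA, a larger share of cells that express a gene and more RNA per cell cannot be told apart.

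Among cohesin genes, Rec8 drew nearer to its mitotic counterpart in CD1530. Rad21, the mitotic kleisin, was at 90.3 ± 0.97 RPKM in PM, 64.9 ± 0.63 in CD1530 D10 and 77.2 ± 0.11 in AGN D10. Rec8 as a percent of Rad21, both per length, was 7.55% in PM, 5.71% (CD1530) and 5.17% (AGN) at D6.25, 16.5% and 3.01% at D8.5, then 42.0% and 5.36% at D10. Rad21 itself was higher in CD1530 at D8.5 (log2 0.20 ± 0.03, edgeR adjusted p = 3.14e-06) and lower at D10 (log2 -0.25 ± 0.03, edgeR adjusted p = 2.08e-08).
The other meiotic cohesin subunits did not stand above PM in CD1530 at D10 as Rec8 did. Smc1b, the meiotic form of SMC1, was at 13.2 ± 0.31 CPM with CD1530 and 7.01 ± 0.88 CPM with AGN at D10 (log2 0.92 ± 0.10, edgeR adjusted p = 1.8e-10). PM held 13.3 ± 1.1 CPM of it, and CD1530 D10 stood at -0.01 ± 0.09 of that on the log2 scale, which was not called. Earlier, Smc1b was above its PM level of 3.29 RPKM, at 5.03 (CD1530) and 3.99 RPKM (AGN) at D7.5. With CD1530 it was still at 4.19 RPKM at D8.5. Stag3, the meiotic form of the STAG subunit, fell from 32.8 ± 0.30 CPM in PM to 8.98 ± 0.41 CPM in CD1530 and 9.88 ± 1.0 CPM in AGN at D10, with a log2 difference between conditions of -0.14 ± 0.10 that was not called. At D8.5 both were called higher in CD1530, as were 20.4% of all genes. Smc1b was then at 4.19 against 2.63 RPKM and Stag3 at 2.32 against 1.85 RPKM. Rad21l was not analysed here. Of the mitotic core, Smc1a, Smc3 and Stag2 were lower in CD1530 at D10 by 0.11, 0.14 and 0.31 on the log2 scale (edgeR adjusted p of 0.0152 or less), and Stag1 was at 0.02 ± 0.06. Of the 16 genes on the mitotic cohesin list, 1 was called higher and 9 lower at D10, where 22.7% of all genes were higher and 24.0% lower, with Esco2 (log2 -0.85 ± 0.07) and Cdca5 (log2 -0.63 ± 0.05), which establish and protect cohesion in S phase, the furthest from 0.

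**Figure D2:**
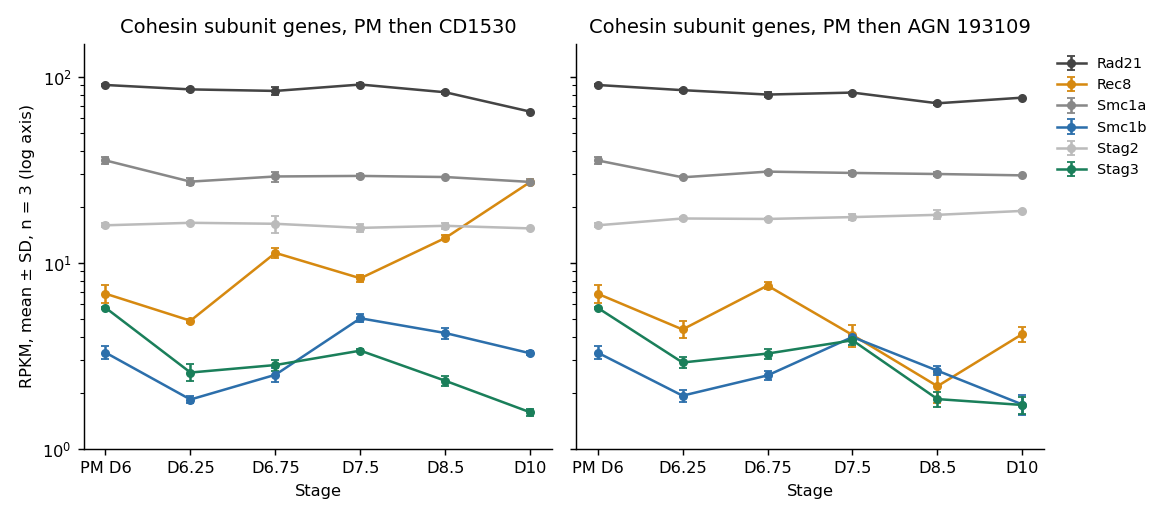
Levels of 6 cohesin genes as RPKM (mean ± SD, n = 3, log axis) from PM through CD1530 (left) and from PM through AGN (right). Rec8 climbs to 27.2 RPKM at D10 in CD1530, the level of Smc1a there, and stays between 2.17 and 7.54 RPKM in AGN, while Stag3 declines in both.

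Called in either direction, the listed meiotic genes other than Stra8 stood near the shares of all genes. From D6.75 on, more of them were called higher in CD1530 than lower. Lists of meiotic cohesin, licensing, synaptonemal complex, recombination and telomere attachment genes, 50 genes without Stra8 but with Rec8, had 35 in the table. Of these, 0 were called between CD1530 and AGN by edgeR at D6.25, and 0 by DESeq2, while at an unadjusted p under 0.05 edgeR had 3 higher and 2 lower. Calls higher in CD1530 numbered 4, 6, 15 and 14 from D6.75 to D10, and calls lower numbered 1, 3, 0 and 5, where the 0 at D8.5 was also 0 at an unadjusted p under 0.05. The called shares of 14.3%, 25.7%, 42.9% and 54.3% from D6.75 to D10 stand beside the 18.0%, 26.9%, 40.0% and 46.6% of all genes. The higher calls among all genes came to 1.23%, 7.94%, 15.2%, 20.4% and 22.7% from D6.25 on, and the lower calls to 0.695%, 10.0%, 11.8%, 19.6% and 24.0%. The median log2 difference of the 35 was 0.02, 0.17, 0.09, 0.41 and 0.32 across the 5 stages, against -0.02 to 0.01 for all genes. Their summed level was 694 to 721 CPM in PM, 418 to 431 CPM in CD1530 D10 and 348 to 350.0 CPM in AGN D10, so it lay below the PM level in both.

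Of the licensing genes, Meiosin (Gm4969 in the table), the partner of STRA8, held 1.07 ± 0.22 CPM (CD1530) and 1.13 ± 0.27 CPM (AGN) at D10, and was not called at any stage. Meioc, which with YTHDC2 stabilizes the switch from mitosis to meiosis, rose from 1.83 ± 0.32 CPM in PM to 13.8 ± 0.31 CPM in CD1530 and 6.89 ± 1.1 CPM in AGN (log2 difference 1.00 ± 0.11, edgeR adjusted p = 7.95e-10). Rbm46, an RNA-binding partner of both, was higher by 0.32 ± 0.11 at D10 (edgeR adjusted p = 0.0184), and Ythdc2 was at 0.06 ± 0.10.
Of the 8 synaptonemal complex genes in the table, 4 were called higher and 2 lower at D10, beside 22.7% and 24.0% of all genes. Sycp1, the transverse filament, held 3.76 ± 0.43 CPM with CD1530 and 0.446 ± 0.13 CPM with AGN at D10 (log2 3.06 ± 0.30), and Syce1, of the central element, at 3.83 ± 0.38 and 1.21 ± 0.21 CPM (log2 1.65 ± 0.17). Sycp3, of the lateral element, held 2.50 ± 0.41 and 5.65 ± 1.1 CPM (log2 -1.18 ± 0.18), after being higher in CD1530 at D8.5 (log2 0.58 ± 0.17). All of these were called (edgeR adjusted p of 0.00424 or less), and their D10 levels lay between 0.446 and 5.65 CPM. Hormad1, of the chromosome axis, was higher by 0.56 ± 0.13, and Six6os1 (4930447C04Rik in the table), of the central element, by 0.75 ± 0.23. Trip13, a remodeler of the axis proteins, was the other lower call (log2 -0.17 ± 0.06, edgeR adjusted p = 0.0231).
The largest called differences of recombination genes at D10 were those of Tex11, which stabilizes crossovers, at 5.78 ± 0.37 against 0.812 ± 0.19 CPM (log2 2.83 ± 0.22), Ccnb1ip1 (log2 1.78 ± 0.69, 9 counts at most), Hfm1 (log2 1.48 ± 0.36), Dmc1, the meiotic recombinase (log2 0.52 ± 0.14), and Rec114 (log2 0.40 ± 0.16). Terb2, which tethers telomeres to the nuclear envelope, was at 0.985 ± 0.13 against 0.263 ± 0.072 CPM (log2 1.88 ± 0.47), and Sun1, a nuclear envelope anchor, was lower by 0.19 ± 0.05. Spo11, which makes the breaks that start recombination, and 14 other listed genes were not analysed here.

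**Figure D3:**
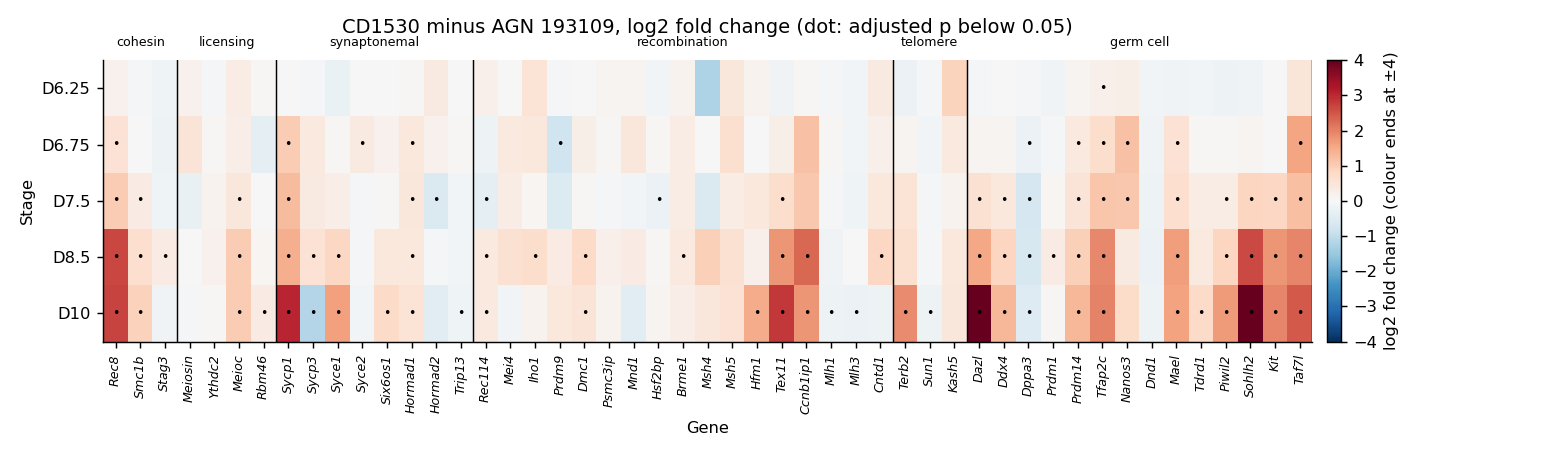
Log2 fold change between CD1530 and AGN at each stage (rows) for the listed meiotic and germ cell genes other than Stra8 (columns), with a dot where the edgeR adjusted p was below 0.05. Color is strongest at D8.5 and D10 for Rec8, Sycp1, Tex11, Dazl, Sohlh2 and Taf7l, while most recombination genes stay pale and Sycp3 turns from higher at D8.5 to lower at D10.

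Most germ cell genes in the table were higher with CD1530 from D7.5 on. Of 21 listed, 14 were in the table, and 1 was called higher at D6.25, 5 at D6.75 and 10 at each of D7.5, D8.5 and D10, with 1 called lower from D6.75 on. Of all genes, 15.2%, 20.4% and 22.7% were higher at the last 3 stages. The median log2 difference of the 14 reached 1.48 at D10. Their summed level was 618 to 627 CPM in PM, 235 to 247 CPM in CD1530 D10 and 59.9 to 63.3 CPM in AGN D10.
Dazl, an RNA-binding protein needed for meiotic competence, was at 25.2 ± 1.8 CPM in PM, 40.3 ± 1.5 in CD1530 D10 and 2.57 ± 0.087 in AGN D10 (log2 difference 3.97 ± 0.10). Sohlh2, a germ cell bHLH factor, was at 12.7 ± 1.7, 61.4 ± 0.23 and 3.60 ± 0.19 CPM (log2 difference 4.09 ± 0.11). Both were thus above PM in CD1530 and below it in AGN. Kit, the stem cell factor receptor, was at 111 ± 3.9 CPM in PM and fell to 52.6 ± 0.82 in CD1530 and 13.7 ± 1.4 in AGN.
Tfap2c (log2 1.99 ± 0.09) and Taf7l (log2 2.44 ± 0.22) were also higher in CD1530 at D10. Dppa3, which marks primordial germ cells, was the member that was lower (log2 -0.51 ± 0.15, edgeR adjusted p = 0.00478). Many of these genes are also expressed in pluripotent cells, and 9 pluripotency genes summed to 3123 to 3169 CPM in PM, 298 to 303 in CD1530 D10 and 534 to 548 in AGN D10. Pou5f1 was at 701 ± 8.2 CPM in PM, 26.6 in CD1530 D10 and 149 in AGN D10. The 9 did not all go this way. At D10, 3 were called higher in CD1530 and 5 lower, beside 22.7% and 24.0% of all genes. At D8.5, 4 were called higher and 5 lower, beside 20.4% and 19.6%. The part of pluripotent or germ cells in the levels of Stra8 and Rec8 was not tested.

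As for the labelled cell types, Scx, the tendon factor behind the reporter, was at 6.41 ± 0.85 CPM in PM, 858 in CD1530 D10 and 1223 in AGN D10, and the PM markers T and Tbx6 were at 79.0 ± 4.0 and 9.56 ± 0.77 CPM in PM. Other cell type markers also differed between conditions, not all along the course of Stra8. At D10, where 22.7% of all genes were called higher in CD1530, all 8 listed neural genes were, summing to 802 to 816 CPM against 487 to 521 CPM in AGN, with Neurog2 at 2.64 CPM against 0 in AGN, Sox1 at 16.0 against 0.367 CPM and Pax6 at 10.4 against 0.362 CPM. In each AGN group 1 of the 8 was at 3 counts or fewer in every library, and at D10 this was Neurog2. The call of Neurog2 is thus a description and not independent evidence. At D8.5, where Stra8 was highest, 5 of the 8 were called higher and 1 lower, beside 20.4% and 19.6% of all genes. Their sums then overlapped, at 788 to 834 CPM in CD1530 and 753 to 819 CPM in AGN. All 7 genes of the 2-cell-like state in the table were called higher at D10, summing to 26.1 to 27.4 CPM in CD1530 and 0.0602 to 0.178 CPM in AGN, with each of the 7 at 3 counts or fewer in every library of AGN D10 and PM. In AGN at D6.25, D6.75, D7.5 and D8.5, 6, 7, 5 and 5 of the 7 were at or under 3 counts. Every gene of the table had at least 0.611 CPM in its third-highest library. Outside CD1530 D7.5, D8.5 and D10, no library held more than 0.558 CPM of the 7 summed. They are thus in the table only through those CD1530 groups, so these calls are a description and not independent evidence. They include Zscan4d, at 6.87 CPM in CD1530 D10, and Zscan4c, at 6.81 CPM. All 4 cartilage genes were called lower in CD1530 at D10, as were 24.0% of all genes, such as Col2a1 at 145 against 2497 CPM. Of the 5 tendon genes, 3 were called lower and 0 higher. Tnmd of that list was at 5.12 against 10.4 CPM. Their part in the Stra8 and Rec8 results was not tested.

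At D6.25, when Stra8 stood near its starting level and Rec8 was not called, 9 of the 12 listed retinoid targets were called higher in CD1530, as were 1.23% of all genes, and from D6.75 on all 12 were. Whether their timing differs from that of Rec8 was not tested. As a percent of each gene's own CD1530 D10 mean, Stra8 was at 0.0998%, 3.10%, 26.0% and 115% from D6.25 to D8.5, and Rec8 was at 17.9%, 41.5%, 30.3% and 50.1%. Cyp26a1, the retinoic acid hydroxylase, was already at 43.8% at D6.25 and 99.3% at D6.75, then 42.3% and 54.9%. Cyp26b1, its paralog that shields fetal testis germ cells from retinoic acid, was at 27.5%, 89.4%, 92.4% and 68.4%.
Rarb, a receptor gene that is itself a direct target, was the lowest of the 12 at D6.25, at 2.24%, and reached 13.9%, 28.7% and 44.3%. Dhrs3, which reduces retinaldehyde, was at 4.65%, 16.8%, 34.7% and 51.7%. Hoxb1 had its highest level at D8.5, at 155%, as Stra8 did at 115%. Crabp2, Stra6, Cyp26c1 and Tgm2, of retinoid binding, uptake and turnover or response, were highest at D10, and Cdx1, at 108% at D6.25, was higher still in PM at 381%.

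**Figure D4:**
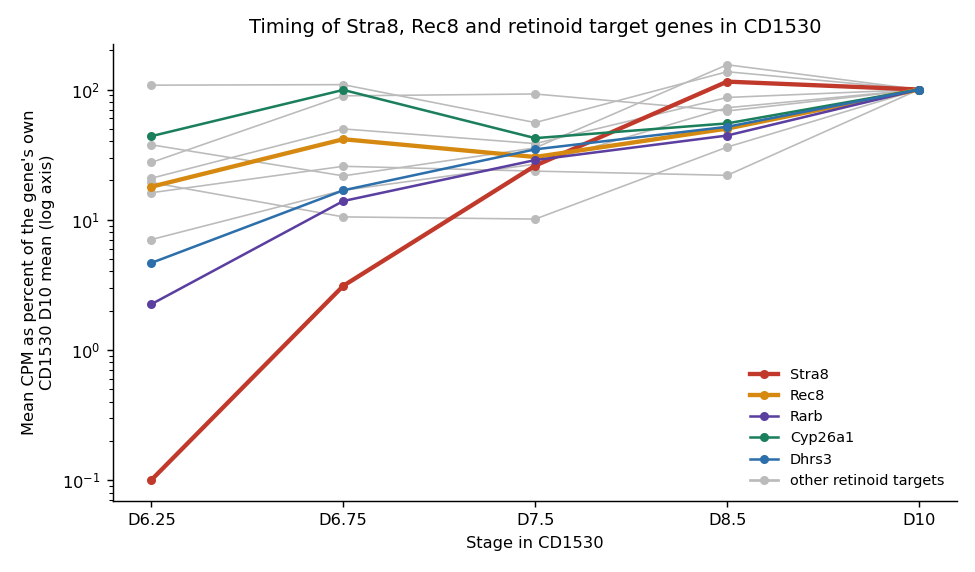
Mean CPM in CD1530 as a percent of each gene's own CD1530 D10 mean (log axis) at the 5 stages, for Stra8, Rec8 and 10 of the 12 retinoid targets. Stra8 starts at 0.0998% and passes 100% at D8.5, whereas at D6.25 the plotted targets already lie between 2.24% (Rarb) and 108% (Cdx1).

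Of 12 listed genes that regulate Stra8, 10 were in the table. Calls higher numbered 3, 5, 5, 7 and 3 from D6.25 to D10 and calls lower 0, 1, 1, 1 and 2. The 8 of 10 called at D8.5 and 5 of 10 at D10 stand beside 40.0% and 46.6% of all genes. Rarg, the receptor that CD1530 activates, was at 47.2 ± 2.0 CPM in PM, was higher in CD1530 at D7.5 (141 against 78.4 CPM, log2 0.84 ± 0.05, edgeR adjusted p = 6.48e-18) and stood at 130.1 and 133 CPM at D10 (log2 -0.03 ± 0.05, edgeR adjusted p = 0.653). Rxra, an obligate partner, was lower in CD1530 at D10 (log2 -0.68 ± 0.04, edgeR adjusted p = 1.53e-16). Dmrt1, which in the fetal ovary is needed for Stra8, was at 28.3 ± 1.1 CPM in PM, 34.5 in CD1530 D10 and 2.83 in AGN D10, and its log2 difference grew from 0.12 ± 0.10 at D6.25 to 0.76, 1.66, 2.59 and 3.60 at the later stages. Rarb and Cyp26b1 count both here and among the targets. Msx1 and Msx2, BMP-dependent factors of meiotic entry, were called higher at D8.5 (log2 0.55 ± 0.18 and 1.52 ± 0.25) and at no other stage.
Of 14 PRC1.6 genes, the calls higher from D7.5 to D10 numbered 2, 1 and 3 and the calls lower 5, 7 and 5, with median log2 differences of -0.11, -0.14 and -0.06. In all, 7, 8 and 8 of the 14 were called, against 26.9%, 40.0% and 46.6% of all genes. L3mbtl2, a subunit of this repressor, was lower in CD1530 by 0.64 ± 0.05 at D7.5 and 0.50 ± 0.05 at D10, and Pcgf6, another, by 0.39 at both. E2f6 and Mga, which bind DNA in the complex, were at 0.15 ± 0.05 and -0.32 ± 0.14 at D10, and the second was not called.
Stra8 owes its name to screens for genes stimulated by retinoic acid, and the 7 other genes of such screens listed here were all called higher at D8.5 and D10, where 20.4% and 22.7% of all genes were. Stra6, the retinol uptake receptor, was at 384 against 11.2 CPM at D10 (log2 5.10 ± 0.08), Gbx2 at 4.89 against 0.164 CPM (log2 4.87 ± 0.27) and Meis2 at 104 against 9.71 CPM (log2 3.43 ± 0.09). Efnb1 (log2 1.36 ± 0.05), Lefty1 (log2 1.12 ± 0.05) and Bhlhe40 (log2 0.28 ± 0.04) differed less, and Tfap2c is given among the germ cell genes.

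The genes beside Stra8 and Rec8 differed little between conditions. Of the 3 nearest table genes on each side of Stra8, Wdr91, 9286 bases before it, was higher in CD1530 by 0.48 ± 0.07, 0.50 ± 0.07 and 0.54 ± 0.07 at D7.5, D8.5 and D10 (edgeR adjusted p of 1.14e-06 or less). Slc23a4, 5933 bases after it, was at 0.644 against 0.367 CPM at D10 (log2 0.81 ± 0.43, not called). Tmem140 and Nup205 were called at D8.5 only, by 0.54 ± 0.21 and 0.15 ± 0.06, and Cyren and Cnot4 at no stage.
Ipo4, on the opposite strand with a gap of 4 bases to Rec8, was called at no stage and was at 44.4 against 42.2 CPM at D10. The strand setting of the counting is not given in the sources used here, so reads crossing that gap cannot be assigned to either gene. Its neighbour Tm9sf1 was lower by 0.26 ± 0.04 and Rnf31 by 0.24 ± 0.05 at D10, Irf9 was higher by 0.17 ± 0.05 at D7.5, and Psme2 and Gm49747 were called at no stage.

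**Figure D5:**
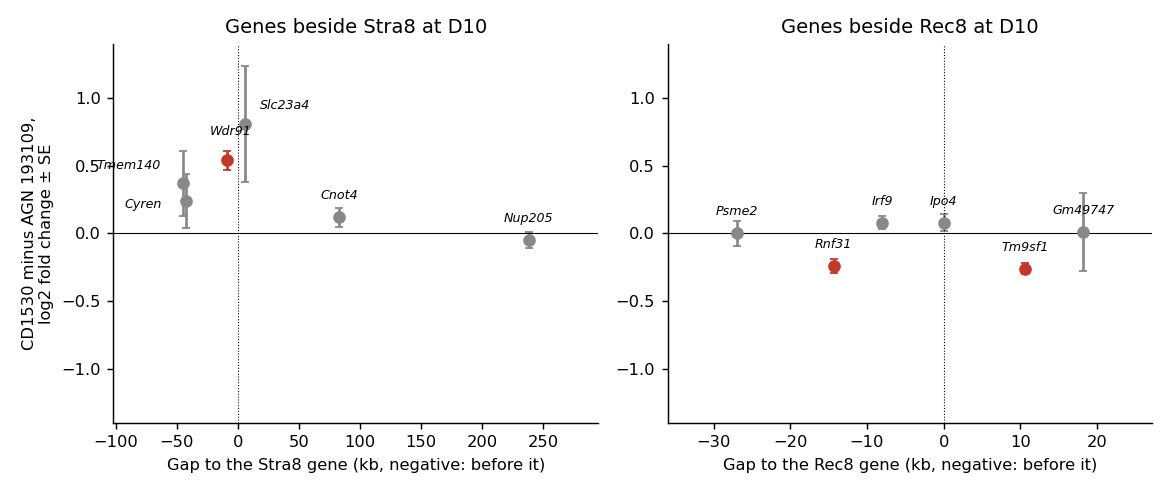
Log2 fold change between CD1530 and AGN at D10 (± SE) of the 3 nearest table genes on each side of Stra8 (left) and Rec8 (right), against their gap to the gene in kilobases; red points had an edgeR adjusted p below 0.05. Wdr91, Rnf31 and Tm9sf1 are the called ones, and none approaches the 2.71 of Rec8.

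Over the 11 group means of log2(CPM + 1), the profiles of Stra8 and Rec8 had a Pearson r of 0.820, and each was far from being the other's nearest gene (rank 158 for Stra8 and 55 for Rec8 among 12268 genes that reached 5 CPM in some group). The 8 profiles most like that of Stra8 were Dleu7 (r = 0.989), Zfyve28 (0.973), Hoxa4 (0.972), Dhrs3 (0.965), Bend4 (0.965), Ptp4a3 (0.964), Tmem229b (0.964) and Hoxa5 (0.963). Of the 8 most like Rec8, 6 are given here: Ubap1 (r = 0.944), Skap2 (0.930), Sgsm2 (0.907), Sfrp2 (0.904), Hoxb9 (0.904) and Polb (0.901), and 7 genes passed 0.9 for Rec8 against 59 for Stra8. The 11 points share their libraries and scaling, so these r are descriptions. The names depended on the measure: by Spearman correlation or on linear CPM 1 of the 8 remained for Stra8 and 3 or 4 for Rec8. On linear CPM the profiles closest to Stra8 were Zscan4c (0.990), a gene of the 2-cell-like list, Ptprz1 (0.988) and Chit1 (0.985), and Sohlh2 of the germ cell list had 0.981. By Spearman correlation they were Pla2g6 (0.973), Ier5l (0.964) and Hoxa4 (0.955).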

How the data were processed

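The authors aligned paired-end reads to GRCm38 with STAR and counted them per gene with featureCounts, and the deposited table holds raw counts for 33 libraries; the annotation release, the strand setting, the handling of reads with several alignments and the low-count filter rule are not given in the sources used here. Every gene had at least 0.611 CPM in its third-highest library. Columns were matched to samples by their labels. Of the gene identifiers, 17117 matched GENCODE M21 and 3 did not.

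A single model over the 33 libraries, 1 coefficient per group, was fitted in edgeR 4.0.16 (R 4.3.3) with TMM scaling, the robust quasi-likelihood F test and no covariates. There were 23 contrasts and 1 interaction, with Benjamini-Hochberg adjustment over all genes. The edgeR filter removed 0 genes, and the biological coefficient of variation was 4.68%. RPKM used the union of GENCODE exons. Ratios of summed counts have exact 95% conditional intervals. Replicates differed by more than sampling noise (chi-square per gene of 1.58 or more), and no pair was identical. On data simulated for CD1530 against AGN at D10 over 17120 genes, the fit recovered 61 of 66 genes changed by 0.5 and 67 of 67 by 1 on the log2 scale, with 12 false calls.

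The members and gene lists were chosen with earlier results of these data known. Named were both members, the cohesin subunits, up to 5 called members per list with the largest D10 difference, the retinoid targets, the 8 most similar profiles (predicted genes left out) and the 3 nearest genes on each side; others named (Spo11, Meiosin, Ythdc2, Dppa3, Tbx6, Rarg, Msx1, Msx2, E2f6, Mga, Lefty1, Bhlhe40, Trip13 and the most similar profiles by other measures) were added after their values were seen. DESeq2 1.42.0, other scalings and filters, a replicate block and left-out libraries were tried as alternatives. Values of 4 genes that the naming rule selects are not reported here.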

Additional observations from a re-analysis of the deposited data

Results flagged for a closer look

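The contrast of CD1530 with AGN for Rec8 changed with stage (edgeR interaction test over 5 stages, adjusted p = 2.62e-22). Its log2 value was 0.16 ± 0.09 at D6.25 and 2.71 ± 0.08 at D10, and it was higher in CD1530 in 3 of 3 libraries against all AGN libraries from D6.75 on. Adjusted p was under 0.05 for this interaction in 48.8% of genes.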

How the results depend on the processing

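Of 23 signed comparisons of Rec8, 22 kept their direction and their side of the threshold under every alternative run (DESeq2 size factors or library size alone, other filters, no robust step, DESeq2, a replicate block, each library left out, and the 6 compared libraries alone where that applied). The exception was AGN D6.75 against PM, whose log2 difference ran from 0.09 to 0.24 with 1 library left out and was called without PM replicate 3. Fitting only the 6 libraries compared gave 804 called genes at D6.25 (329 in the fit of all libraries) and 1236 at D6.75 (3076), and 3 meiotic list members at D6.75 (5) and 15 at D7.5 (9); the cause was not tested. With 1 library left out, 196 to 276 genes were called at D6.25, and 3 to 6 meiotic list members at D6.75, the lowest without AGN replicate 2. Scaled by library size alone, Stra8 in CD1530 D10 was at 187 CPM (201 with TMM). Of the genes called at D10, 3878 were higher and 4102 lower with TMM, 4450 and 3495 by library size alone; at D8.5 the higher share was 51% and 58.8%. Same-numbered CD1530 and AGN libraries showed no shared shift (correlations of deviations from -0.082 to 0.045 over 15 pairs). This cannot tell whether the cultures were paired. The replicate block gave 3009 called genes at D6.75 and 7914 at D10, log2 2.72 for Rec8 at D10, and changed no call of Rec8. Depth limits Stra8 in PM, AGN and CD1530 D6.25, where no library held more than 10 counts.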
